A study of Homo sapiens with 8 samples.

Results

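The 56 genes described here encode proteins that build and run cell division: 12 mitotic kinases, cyclins and CDC25 phosphatases, 11 kinetochore and checkpoint proteins, 9 kinesin motors, 6 other spindle proteins, 6 condensin and chromosome proteins, 7 cytokinesis and chromosomal passenger proteins, 4 proteins of anaphase onset and 1 transcription factor, *FOXM1*. They were taken as a list of symbols from what is known of mitosis, and all 56 were found among the 58051 genes of the count files. RNA was sequenced from 8 cultures of A375, a human melanoma cell line. WT1, WT2, WT3 and WT4 are lines that each grew from a single A375 cell, so each is 1 clone and represents that clone. WT marks them as wild type for *NECTIN1*, the gene the study turns on, and the deposited files of both WT4 libraries carry another clone's name than their labels, which were followed here. Every line was rinsed and kept for 12 h in DMEM either with 10% fetal bovine serum (FBS) or with no serum, which gave 4 serum and 4 serum-free libraries, and the study asked which genes respond to the withdrawal of serum. All 8 libraries share this genotype, and the labels name no other agent.

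In a dividing cell the kinase CDK1 with cyclin B starts mitosis, condensins compact the chromosomes, and kinesins and other spindle proteins arrange microtubules into a bipolar spindle. Kinetochores assemble on centromeres, attach to these microtubules and signal through the spindle checkpoint until every chromosome is attached, after which CDC20 and the anaphase-promoting complex (APC/C) release separase and end mitosis. Most of the genes are transcribed in the G2 and M phases of the cell cycle, under B-MYB, FOXM1 and the MuvB proteins, many of them through a promoter element called CHR, and serum provides growth factors that keep cultured cells cycling.

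The libraries held 29759279 to 67101005 counts on genes with serum and 37847737 to 73341551 without, and the lowest count of any of the 56 genes in any library was 396. Levels are given as CPM, the count of a gene per 1000000 counts of its library, scaled with TMM factors, which correct each library total for the composition of its RNA. The reads that aligned at several places, and were left out of the counts, made up 22.7% and 16.8% in the serum libraries of WT1 and WT2, and 5.73% to 10.1% in the other 6. Of 8 melanocyte markers, *SOX10* had no count, *TYR* and *TYRP1* were at or near 0, and *PMEL*, *MLANA*, *DCT* and *S100B* did not pass the test between the conditions. With the line as a block *DCT* was called lower and *S100B* higher, at edgeR adjusted p-values of 0.0251 and 0.0469. With a correction for GC content as well, 1 of the 5 melanocyte markers tested was called lower and 0 higher. *S100B* was at 18.9 ± 4.82 CPM (s.d., n = 4) with serum and 23.2 ± 8.90 CPM without. *MITF* was at 40.2 ± 3.89 CPM (s.d., n = 4) with serum and 33.1 ± 2.58 CPM without and was called lower, at an edgeR adjusted p of 0.0496. Of 7 markers of blood, epithelial and liver cells that were found, *ALB* had no count, *PTPRC*, *CD3E* and *EPCAM* were at or near 0, and the 3 that could be tested, *KRT5*, *KRT14* and *LYZ*, did not pass the test between the conditions. These 3 did not pass with the block either. With the block and the GC correction 1 of the 3 was called lower and 1 higher.

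All 56 genes were measured well enough to test. With edgeR's quasi-likelihood test and a Benjamini-Hochberg adjusted p under 0.05, 41 of the 56 were lower without serum, 0 were higher and 15 did not pass. Over all 17671 genes tested, 14% were lower and 11.1% were higher. The median log2 fold change, serum-free over serum, was -0.37 for the 56 genes and 0.033 for all genes tested. The changes were small in size. *CDK1* kept 56.9% of its serum level, the lowest share, and the median gene kept 77.3%. All 4 serum-free libraries were below all 4 serum libraries for 37 of the 56 genes, against 15% of all genes tested. Within lines, 52 of the 56 were lower without serum in all 4, against 26.5% of all genes tested, *CDC25C* and *CIT* were higher in all 4, and *CDC25B* and *INCENP* were higher in WT1, WT2 and WT3 and lower in WT4. When the line entered the test as a replicate block, 51 genes were lower, 2 were higher, *CDC25C* and *CIT*, and 3 did not pass, *CDC25B*, *KIF14* and *INCENP*. The background then was 22.4% of genes lower and 23.2% higher. In RNA from a whole culture, fewer cells in G2 and mitosis and less RNA per such cell cannot be told apart.

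**Figure D1:**
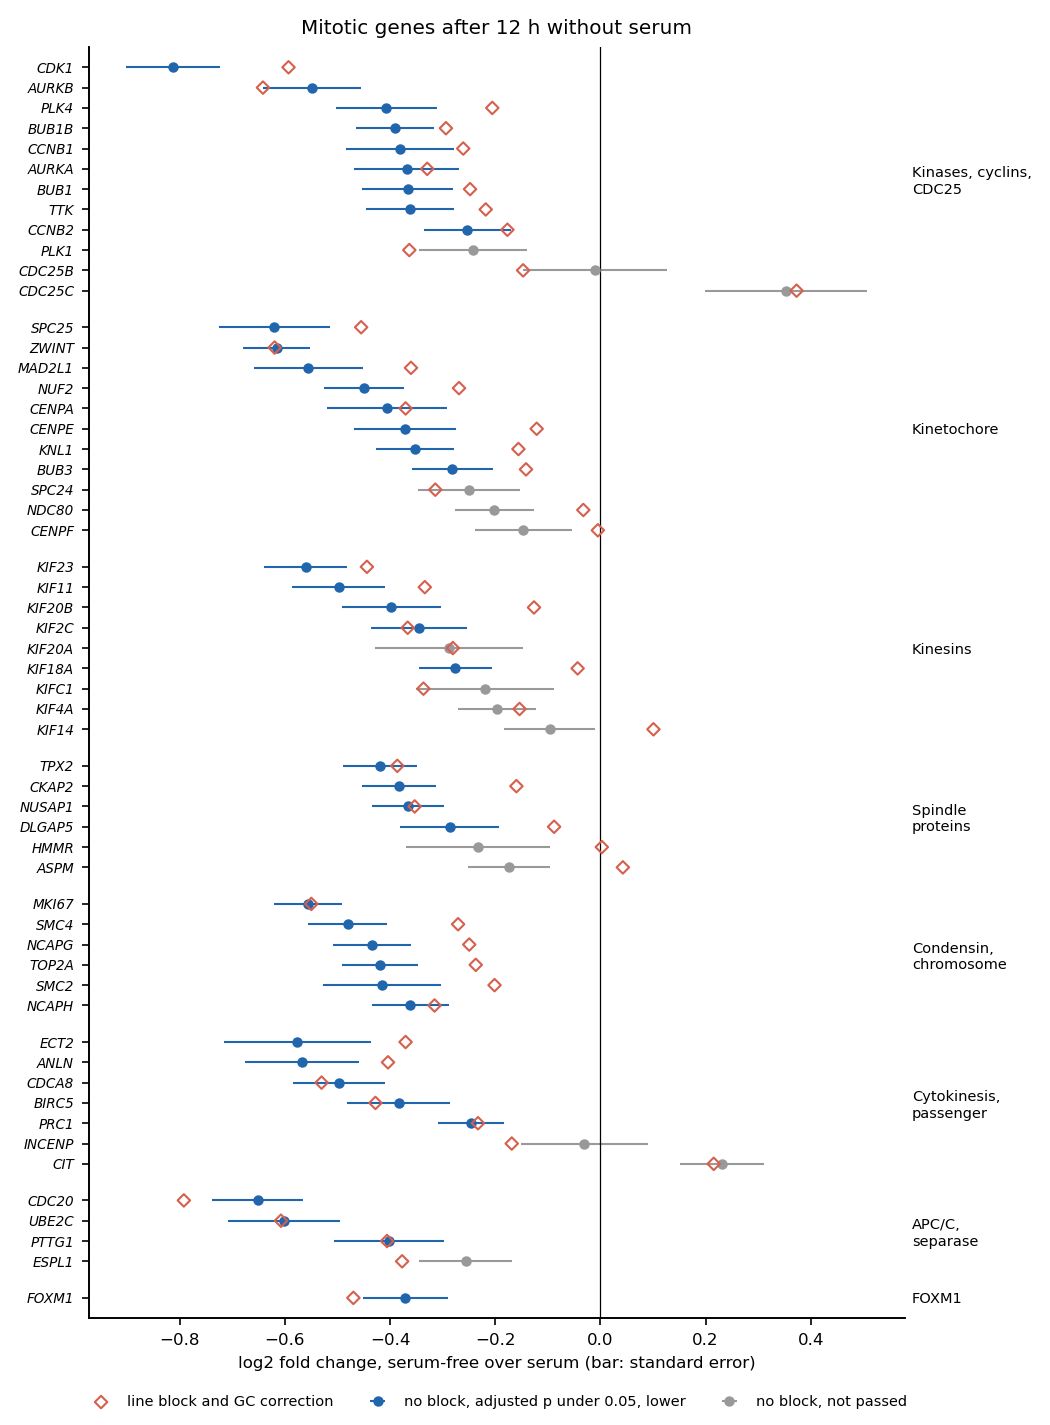
Log2 fold change, serum-free over serum, of the 56 genes by group, with the standard error as a bar. Filled points are edgeR values without a block, blue where the gene passed the test and grey where it did not, and open diamonds are values with the line as a block and a correction for GC content. All blue points lie left of 0, and *CDC25C* and *CIT* are the grey points right of 0.

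The count of 41 moved when libraries or lines were left out, in refits without the block that held fewer libraries. The fit with the line as a block was not refitted in this way. Leaving out 1 library gave 34, 42, 31 and 40 genes lower without the serum library of WT1, WT2, WT3 and WT4, and 32, 30, 40 and 31 without the serum-free library of WT1, WT2, WT3 and WT4. Leaving out a whole line gave 22 without WT1, 26 without WT2, 26 without WT3 and 37 without WT4. The count over all genes, 2477 with all lines, was 969, 1175, 1168 and 3097 in these 4 fits, so that it was smaller without WT1, WT2 or WT3 and larger without WT4. Without the 2 serum libraries rich in multiply aligned reads, those of WT1 and WT2, the count was 24 and the median -0.43, with 724 lower over all genes. Of the 41 calls, 20 were kept in all 12 refits: *CDK1*, *AURKB*, *BUB1B*, *MAD2L1*, *NUF2*, *SPC25*, *ZWINT*, *KIF11*, *KIF23*, *TPX2*, *NUSAP1*, *CKAP2*, *NCAPG*, *SMC4*, *TOP2A*, *MKI67*, *ANLN*, *CDCA8*, *CDC20* and *UBE2C*. The other 21 lost their call in at least 1 refit. Their direction was the same in every refit.

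The promoters of these genes were searched for the elements through which mitotic genes are known to be regulated. RefSeq windows of 250 bases before to 50 after the transcription start on GRCh38.p14 were matched for 48 of the 56 genes, with 63 starts, and *AURKA*, *BIRC5*, *BUB3*, *FOXM1*, *KNL1*, *TPX2*, *TTK* and *UBE2C* were not matched. The CHR letters TTTGAA, on either strand, were in 41 of the 63 windows, or 65.1%, against 15.2% of all 35116 windows. CCAAT, the letters bound by NF-Y, was in 69.8% of the windows of the mitotic genes and 34.6% of all. Both together were in 50.8% and 5.90%. The related CHR letters TTTAAA were in 27.0% and 12.2%, and the forkhead letters TAAACA in 6.35% and 12.3%. An E2F element was in 33.3% and 13.0%, counted as TTCCCGC, or as TTGGCGC, or likewise as TTCGCGC, or else as TTGCCGC. Of the 55 TTTGAA sites in windows of the mitotic genes, 39 lay within 50 bases of the start, or 70.9%, against 27.6% of the 6183 sites in the windows of other genes.

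**Figure D2:**
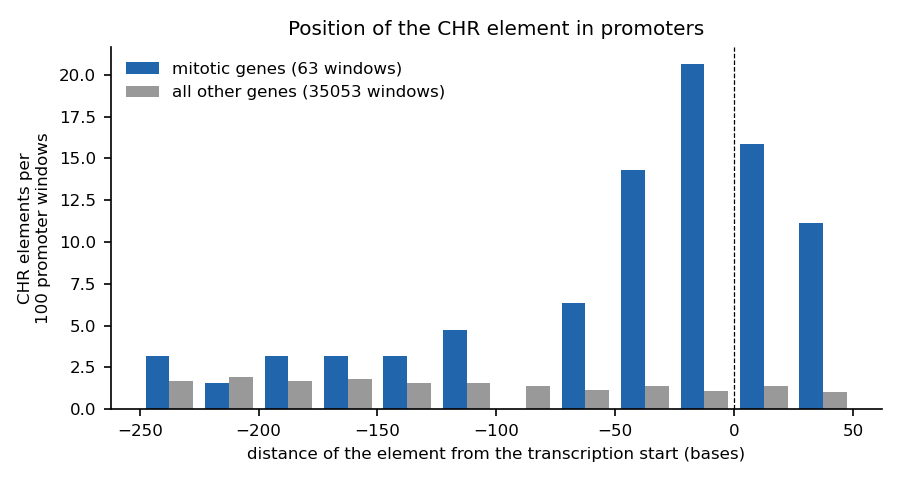
Number of TTTGAA elements per 100 promoter windows in bins of 25 bases, against the distance from the transcription start, in blue for the mitotic genes and in grey for all other genes. The blue bars are highest in the 4 bins from -50 to 50, and the grey bars stay between 1.03 and 1.89 in all bins.

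Without the block, TTTGAA was in 25 of 33 matched genes that were lower without serum and in 12 of 15 that did not pass, and CCAAT was in 24 of 33 and 14 of 15. TTTGAA or TTTAAA was in 30 of 33 and 14 of 15. With the line as a block 10 of these 15 were lower, *PLK1* and *HMMR* among them, and of the other 5 all but *CDC25B* held TTTGAA. A match of letters is a description of the window and no sign of binding. The following stretches from before the start are shown with TTTGAA or its reverse complement TTCAAA and CCAAT or its reverse complement ATTGG in capitals, to set genes that fell beside genes that did not pass. The first 6 are from genes that were lower without serum:
CDK1 (chr10:60778395-60778477, plus strand): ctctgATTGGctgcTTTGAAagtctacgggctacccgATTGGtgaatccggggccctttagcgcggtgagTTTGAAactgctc
CDC20 (chr1:43358846-43358931, plus strand): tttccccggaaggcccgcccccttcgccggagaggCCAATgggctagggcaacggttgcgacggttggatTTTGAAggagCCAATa
KIF11 (chr10:92593032-92593117, plus strand): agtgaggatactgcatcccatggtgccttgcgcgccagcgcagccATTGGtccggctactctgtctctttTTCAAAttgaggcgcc
MKI67 (chr10:128126437-128126522, minus strand): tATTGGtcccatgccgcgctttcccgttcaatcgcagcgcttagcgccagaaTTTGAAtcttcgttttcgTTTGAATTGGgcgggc
ZWINT (chr10:56361275-56361360, minus strand): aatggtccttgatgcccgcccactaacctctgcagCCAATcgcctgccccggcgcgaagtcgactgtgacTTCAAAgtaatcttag
PRC1 (chr15:90994540-90994625, minus strand): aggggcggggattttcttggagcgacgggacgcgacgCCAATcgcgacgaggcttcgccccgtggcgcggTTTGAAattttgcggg
The next 4 are from genes that did not pass the test without the block:
PLK1 (chr16:23678790-23678875, plus strand): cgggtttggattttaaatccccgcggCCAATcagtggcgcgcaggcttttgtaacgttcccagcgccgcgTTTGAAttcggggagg
CDC25C (chr5:138331819-138331904, minus strand): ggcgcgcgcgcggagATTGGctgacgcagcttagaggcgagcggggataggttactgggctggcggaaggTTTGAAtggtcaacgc
INCENP (chr11:62123931-62124010, plus strand): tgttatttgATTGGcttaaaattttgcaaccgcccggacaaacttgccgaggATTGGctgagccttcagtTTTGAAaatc
HMMR (chr5:163460540-163460625, plus strand): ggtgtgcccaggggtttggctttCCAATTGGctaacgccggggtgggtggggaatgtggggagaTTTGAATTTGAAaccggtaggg
Of the CHR letters before the start, those nearest to it lay at bases -13 to -8 in *CDK1*, -29 to -24 in *MKI67*, -29 to -24 in *PLK1*, -30 to -25 in *CDC25C* and -10 to -5 in *INCENP*, counted from the start. The same 2 elements, with the CHR at like distances, stood before a start of *MKI67*, *PLK1* and *CDC25C*. *MKI67* fell, *PLK1* did not pass without the block, and *CDC25C* had a positive log2 fold change. For *CDK1* and *CDC25C* the stretch shown lies inside the span given for the gene, before an inner start. For the other genes shown it lies outside the span. Which start the cells used was not tested.

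Of the 12 kinases, cyclins and CDC25 phosphatases, 9 were lower without serum, 0 were higher and 3 did not pass, with a median log2 fold change of -0.37. *CDK1*, the kinase that drives entry into mitosis, lies on chromosome 10 at 60778331 to 60794852. It was at 169.9, 139.8, 159 and 142 CPM with serum in WT1 to WT4 and at 88.0, 92.1, 92.1 and 75.7 CPM without. Every serum-free library was far below every serum library, and the log2 fold change was -0.81 (s.e. 0.090, edgeR adjusted p = 9.96e-04) by edgeR's quasi-likelihood test, the largest fall of the 56. *CCNB1* encodes cyclin B1, the partner of CDK1, and lies on chromosome 5 at 69167150 to 69178245. Its levels were 331, 299, 371 and 379.9 CPM with serum and 251, 244, 312 and 252 CPM without. The groups overlapped, since WT3 without serum was above WT2 with serum, while each line was lower without serum. The log2 fold change was -0.38 (s.e. 0.10, edgeR adjusted p = 0.0232), and the call was lost in 7 of the 12 refits.

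**Figure D3:**
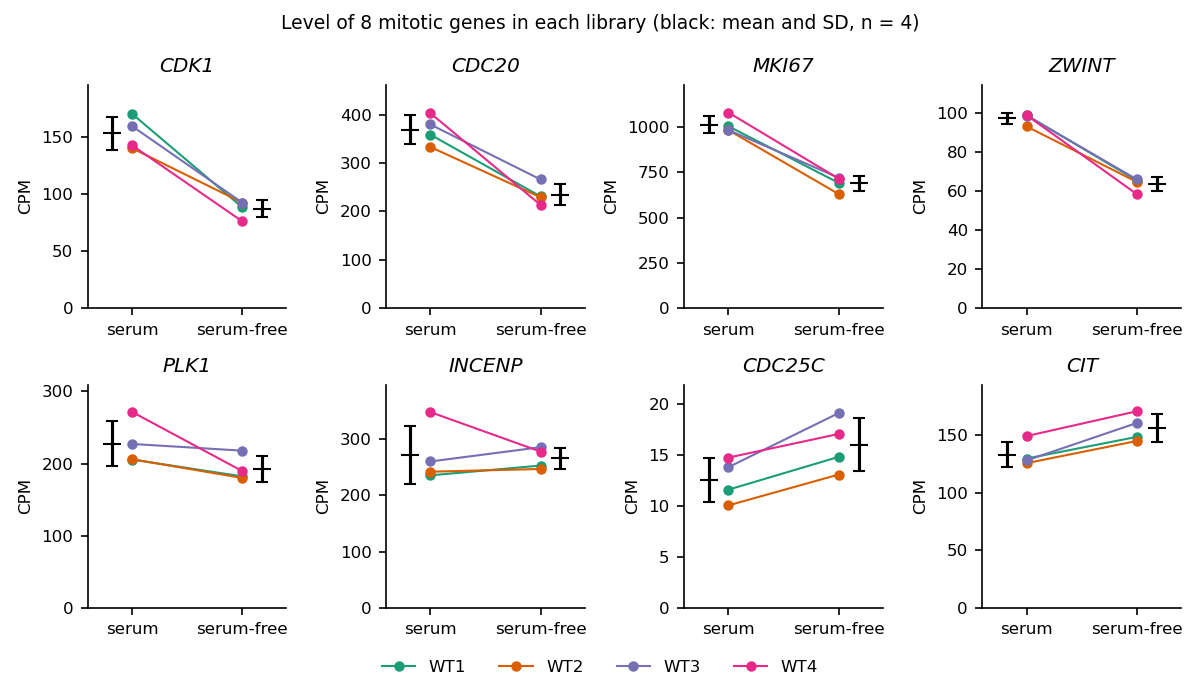
CPM of 8 genes in each library, with 1 colour per line joining its serum and serum-free cultures, and the mean and SD of 4 libraries in black. Without serum every line was lower in *CDK1*, *CDC20*, *MKI67*, *ZWINT* and *PLK1* and higher in *CDC25C* and *CIT*, and in *INCENP* WT4 was lower and the other lines were higher.

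*AURKA* encodes the Aurora kinase of centrosomes and spindle poles. It was at 179, 161, 194 and 215 CPM with serum and at 131, 137, 162 and 149 CPM without. WT4 with serum held the highest value, and the groups overlapped. The log2 fold change was -0.37 (s.e. 0.10, edgeR adjusted p = 0.0245), with the call lost in 7 refits. *AURKB*, on chromosome 17 at 8204731 to 8210575, encodes the Aurora kinase of the chromosomal passenger complex, which corrects wrong attachments and works in cytokinesis. It was at 106, 108, 100.3 and 135 CPM with serum and at 75.8, 78.6, 77.0 and 75.6 CPM without. All serum-free libraries were below all serum ones, and the log2 fold change was -0.55 (s.e. 0.093, edgeR adjusted p = 0.00364), kept in all 12 refits. The remaining genes that fell were *PLK4*, the kinase of centriole duplication, at -0.41, *TTK*, which starts the checkpoint signal, at -0.36, the checkpoint kinases *BUB1* and *BUB1B* at -0.37 and -0.39, and *CCNB2*, cyclin B2, at -0.25. Of these 5, *CCNB2* lost its call in 10 of 12 refits and *BUB1B* in 0.

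*PLK1*, the Polo kinase that acts from mitotic entry to cytokinesis, lies on chromosome 16 at 23678889 to 23690367. It was at 206, 206, 227 and 272 CPM with serum and at 182, 180.2, 218 and 189.6 CPM without. Each line was lower without serum, most in WT4, but WT3 without serum stayed above WT1 and WT2 with serum, and the gene did not pass, with a log2 fold change of -0.24 (s.e. 0.10, edgeR adjusted p = 0.113). With the line as a block it was lower, at an edgeR adjusted p of 0.0107. The CDC25 phosphatases remove inhibitory phosphates from CDK1. *CDC25B* was at 231, 246, 222 and 348 CPM with serum and at 254, 259, 241 and 286 CPM without, with 1 high value, WT4 with serum, and a log2 fold change of -0.010 (s.e. 0.14, edgeR adjusted p = 0.967). *CDC25C*, on chromosome 5 at 138285265 to 138338355, was at 11.6, 10.0, 13.8 and 14.7 CPM with serum and at 14.8, 13.1, 19.1 and 17.0 CPM without. It was higher without serum in each line, the groups overlapped, and the log2 fold change was 0.35 (s.e. 0.15, edgeR adjusted p = 0.122). With the line as a block *CDC25C* was called higher, at an edgeR adjusted p of 0.0032.

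Among the 11 kinetochore and checkpoint genes 8 were lower and 3 did not pass, with a median log2 fold change of -0.37, and with the line as a block all 11 were lower, or 9 with the GC correction as well. Kinetochores have an NDC80 complex of 4 proteins that binds microtubules. *SPC25* was at 15.6, 13.7, 16.3 and 13.9 CPM with serum and at 9.58, 9.72, 10.7 and 8.74 CPM without. No overlap was seen between the groups and the log2 fold change was -0.62 (s.e. 0.11, edgeR adjusted p = 0.00376), the largest of the group. *SPC24*, its partner, was at 93.6, 85.1, 94.2 and 110.0 CPM with serum and at 89.7, 77.9, 83.1 and 71.3 CPM without. The difference was mostly in WT4, whose serum level was the highest, and *SPC24* did not pass, with -0.25 (s.e. 0.096, edgeR adjusted p = 0.086). *NUF2* was lower at -0.45. *NDC80*, on chromosome 18 at 2571557 to 2616635, which pairs with *NUF2*, was at 42.3, 38.7, 46.3 and 43.5 CPM with serum and at 38.2, 34.3, 38.3 and 37.8 CPM without. Serum and serum-free libraries did not overlap, yet the log2 fold change was -0.20 (s.e. 0.076, edgeR adjusted p = 0.0795), short of the threshold, and with the block it passed at an edgeR adjusted p of 0.0144.

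*ZWINT*, on chromosome 10 at 56357227 to 56361273, encodes a protein that joins the outer kinetochore to the checkpoint complex. It was at 99.1, 93.3, 98.9 and 99.1 CPM with serum and at 65.5, 64.7, 66.0 and 58.5 CPM without. The 4 serum values were close to each other, the groups were well apart, and the log2 fold change of -0.62 (s.e. 0.063, edgeR adjusted p = 8.88e-04) had the smallest p of all 56 genes. *MAD2L1*, which encodes the checkpoint inhibitor of CDC20, was lower at -0.56. *CENPA*, the histone H3 variant of centromeres, was lower at -0.41, *CENPE*, the motor that carries chromosomes to the spindle equator, at -0.37, *KNL1*, the scaffold of BUB proteins, at -0.35, and *BUB3*, the partner of BUB1, at -0.28. *CENPF*, a large protein of the outer kinetochore, was at 738, 627, 759 and 647 CPM with serum and at 644, 559, 707 and 593 CPM without. Each line was slightly lower without serum, the groups overlapped, and the log2 fold change of -0.15 (s.e. 0.092, edgeR adjusted p = 0.273) did not pass.

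Of 9 kinesins, motors that move along microtubules or take their ends apart, 5 were lower and 4 did not pass, with a median log2 fold change of -0.29, and with the line as a block 8 were lower, or 7 with the GC correction as well. *KIF23*, a motor of the central spindle needed for cytokinesis, lies on chromosome 15 at 69414349 to 69448427. It was at 224, 187, 196 and 185 CPM with serum and at 145, 136, 129.8 and 127 CPM without. The 2 conditions did not overlap, and the log2 fold change was -0.56 (s.e. 0.078, edgeR adjusted p = 0.00193). *KIF11*, on chromosome 10 at 92593130 to 92655395, pushes the spindle poles apart. It was at 346, 325, 349.6 and 295 CPM with serum and at 250.3, 252, 229 and 201 CPM without. Its groups did not overlap either, with a log2 fold change of -0.50 (s.e. 0.089, edgeR adjusted p = 0.00438). *KIF20B* was lower at -0.40, *KIF2C*, which takes microtubule ends apart at centromeres, at -0.35, and *KIF18A*, which dampens the swinging of chromosomes, at -0.28.

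*KIF20A*, a motor of the central spindle, was at 181, 148, 199.5 and 213 CPM with serum and at 144, 122, 183 and 159 CPM without. The values spread widely within each group, and the log2 fold change of -0.29 (s.e. 0.14, edgeR adjusted p = 0.165) did not pass. *KIFC1*, a minus-end motor that bundles spindle poles, was at 84.4, 82.3, 93.7 and 125 CPM with serum and at 78.9, 75.8, 92.9 and 83.4 CPM without. The difference was largest in WT4, the groups overlapped, and the log2 fold change was -0.22 (s.e. 0.13, edgeR adjusted p = 0.253). *KIF4A*, a motor of chromosome arms and the central spindle that has a near-identical copy in the genome, was at 110.5, 108, 112 and 128 CPM with serum and at 95.9, 95.2, 104 and 105 CPM without. All serum-free values were below all serum values, by a narrow gap, and the log2 fold change was -0.20 (s.e. 0.074, edgeR adjusted p = 0.0783). *KIF14*, a motor of the midbody, was at 182, 151, 193 and 163 CPM with serum and at 159.9, 149, 173 and 162 CPM without. Its levels differed little in WT2 and WT4, and its log2 fold change of -0.097 (s.e. 0.087, edgeR adjusted p = 0.452) was the smallest of the group. *KIF20A*, *KIFC1* and *KIF4A* were lower with the line as a block, at edgeR adjusted p-values of 9.58e-04, 0.0494 and 0.00864.

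The 6 other spindle proteins had 4 genes lower and 2 that did not pass, and all 6 were lower with the block. *TPX2*, on chromosome 20 at 31739290 to 31801800, encodes the activator of AURKA on spindle microtubules. It was at 394, 376, 405 and 439 CPM with serum and at 294, 289, 329 and 296 CPM without. No overlap was seen between the groups, and the log2 fold change was -0.42 (s.e. 0.070, edgeR adjusted p = 0.00353). *CKAP2* and *NUSAP1*, which stabilise and bundle microtubules, were lower at -0.38 and -0.37, and *DLGAP5*, which strengthens kinetochore fibres, at -0.29, a call lost in 9 refits. *HMMR*, which anchors spindle poles, was at 76.3, 61.1, 87.8 and 88.9 CPM with serum and at 67.1, 54.1, 76.0 and 70.0 CPM without. WT2 had the lowest level in both conditions, so the groups overlapped although each line was lower without serum, and the log2 fold change was -0.23 (s.e. 0.14, edgeR adjusted p = 0.24). *ASPM*, a protein of spindle poles, was at 490.1, 419, 524 and 467 CPM with serum and at 424, 389, 443 and 429 CPM without. Its groups overlapped and the log2 fold change of -0.17 (s.e. 0.079, edgeR adjusted p = 0.133) did not pass. With the block both passed, at edgeR adjusted p-values of 0.00465 for *HMMR* and 0.0132 for *ASPM*. With the block and the GC correction described further on, neither passed, at log2 fold changes of 0.0027 and 0.043, and 3 of the 6 were lower, at a median of -0.12.

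The 6 condensin and chromosome genes were all lower without serum, with log2 fold changes from -0.56 to -0.36. *MKI67*, which encodes the chromosome surface protein Ki-67, a common label of cycling cells, lies on chromosome 10 at 128096659 to 128126423. It was at 1006, 985, 985 and 1082 CPM with serum and at 692, 631, 721 and 715 CPM without. The groups were far apart, and the log2 fold change was -0.56 (s.e. 0.065, edgeR adjusted p = 0.00112). SMC2 and SMC4 are paired proteins of the condensin ring. *SMC2* was at 247, 209, 235 and 175 CPM with serum and at 179.8, 163, 163 and 143 CPM without, with overlapping groups and -0.42 (s.e. 0.11, edgeR adjusted p = 0.024). *SMC4*, on chromosome 3 at 160399650 to 160434953, was at 410.4, 366, 369 and 347 CPM with serum and at 280.3, 286, 249 and 254 CPM without, with groups that did not overlap and -0.48 (s.e. 0.075, edgeR adjusted p = 0.00264). The condensin subunit *NCAPH* was at 84.6, 75.4, 84.7 and 92.0 CPM with serum and at 66.0, 62.3, 68.8 and 64.9 CPM without. Its change, -0.36 (s.e. 0.073, edgeR adjusted p = 0.00733), was the smallest of the group. The subunit *NCAPG* was lower at -0.44, and *TOP2A*, the topoisomerase that untangles sister chromatids, at -0.42.

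Of the 7 cytokinesis and passenger genes 5 were lower and 2 did not pass, with a median of -0.38. *ECT2* encodes the exchange factor that switches on RhoA at the division site. It was at 209, 180.0, 225 and 148 CPM with serum and at 134, 134, 139.8 and 103 CPM without. Serum and serum-free libraries did not overlap, WT4 was lowest in both conditions, and the log2 fold change was -0.58 (s.e. 0.14, edgeR adjusted p = 0.0158). *ANLN*, which encodes anillin, the scaffold of the contractile ring, was lower at -0.57. *PRC1*, on chromosome 15 at 90966040 to 90994535, cross-links the central spindle. It was at 182, 165, 171 and 189 CPM with serum and at 148, 148, 146 and 154 CPM without, with no overlap and a log2 fold change of -0.25 (s.e. 0.063, edgeR adjusted p = 0.0194), a call lost in 7 refits.

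The chromosomal passenger complex joins AURKB to the scaffold INCENP and to survivin (*BIRC5*) and borealin (*CDCA8*), and its genes had unlike values. *CDCA8* was at 113, 98.3, 113 and 126 CPM with serum and at 76.9, 74.5, 88.4 and 79.0 CPM without. The groups did not overlap, and the log2 fold change was -0.50 (s.e. 0.088, edgeR adjusted p = 0.00427). *BIRC5* was lower at -0.38. *INCENP*, on chromosome 11 at 62124011 to 62153169, was at 235, 242, 259.9 and 348 CPM with serum and at 253, 247, 285 and 277 CPM without. WT4 with serum was the highest of the 8, the other lines were slightly higher without serum, and the log2 fold change was -0.030 (s.e. 0.12, edgeR adjusted p = 0.884). *CIT*, which encodes citron kinase of the midbody, on chromosome 12 at 119685791 to 119877320, was at 129.8, 126, 128 and 149 CPM with serum and at 149, 145, 161 and 171 CPM without. Each line was higher without serum. The groups overlapped since WT4 with serum, at 149.3 CPM, was above WT1 and WT2 without serum, at 148.6 and 145.1 CPM. The log2 fold change was 0.23 (s.e. 0.080, edgeR adjusted p = 0.0602), short of the threshold, and with the block *CIT* was called higher at an edgeR adjusted p of 0.00262.

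Of the 4 genes of anaphase onset 3 were lower, and all 4 with the block. *CDC20*, on chromosome 1 at 43358981 to 43363203, encodes the activator of the APC/C, which marks cyclin B and securin for destruction. It was at 359, 334, 381 and 404 CPM with serum and at 231, 229, 266 and 214 CPM without. The groups were far apart, WT4 fell most, and the log2 fold change was -0.65 (s.e. 0.086, edgeR adjusted p = 0.00164), after *CDK1* the largest fall. *UBE2C*, the ubiquitin-conjugating enzyme of the APC/C, was lower at -0.60, and *PTTG1*, which encodes securin, at -0.40. *ESPL1*, which encodes separase, the protease that opens cohesin, was at 165, 154, 172 and 199.9 CPM with serum and at 155, 134, 150.5 and 139 CPM without. The difference was largest in WT4, the groups overlapped, and the log2 fold change of -0.26 (s.e. 0.089, edgeR adjusted p = 0.0607) just missed the threshold, while with the block it passed at an edgeR adjusted p of 0.00652. *FOXM1*, on chromosome 12 at 2857680 to 2877174, encodes a forkhead factor that activates G2 and M genes. It was at 213, 218, 224 and 271 CPM with serum and at 183, 179, 181 and 174 CPM without. The groups did not overlap, and the log2 fold change was -0.37 (s.e. 0.081, edgeR adjusted p = 0.0102). *FOXM1* lost its call without the line WT3.

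The lines differed in which of the genes were lowered most. The median log2 difference of the 56 genes within a line was -0.50 for WT4, and for WT1 to WT3 it was -0.40, -0.29 and -0.31. In WT4 the largest differences were -0.92 for *CDC20*, -0.91 for *UBE2C*, -0.91 for *CDK1* and -0.84 for *AURKB*. *CDK1* was also the most lowered of the 56 in WT1 and WT3, and *MKI67* was in WT2. *PLK1*, *KIFC1* and *SPC24* were at -0.52, -0.59 and -0.63 in WT4, and at -0.19 to -0.012 in the other lines. Each line has 1 library per condition, and the difference of WT4 from the other lines was not tested. As its files carry another clone's name, what sets this line apart from WT1 to WT3 is uncertain.

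**Figure D4:**
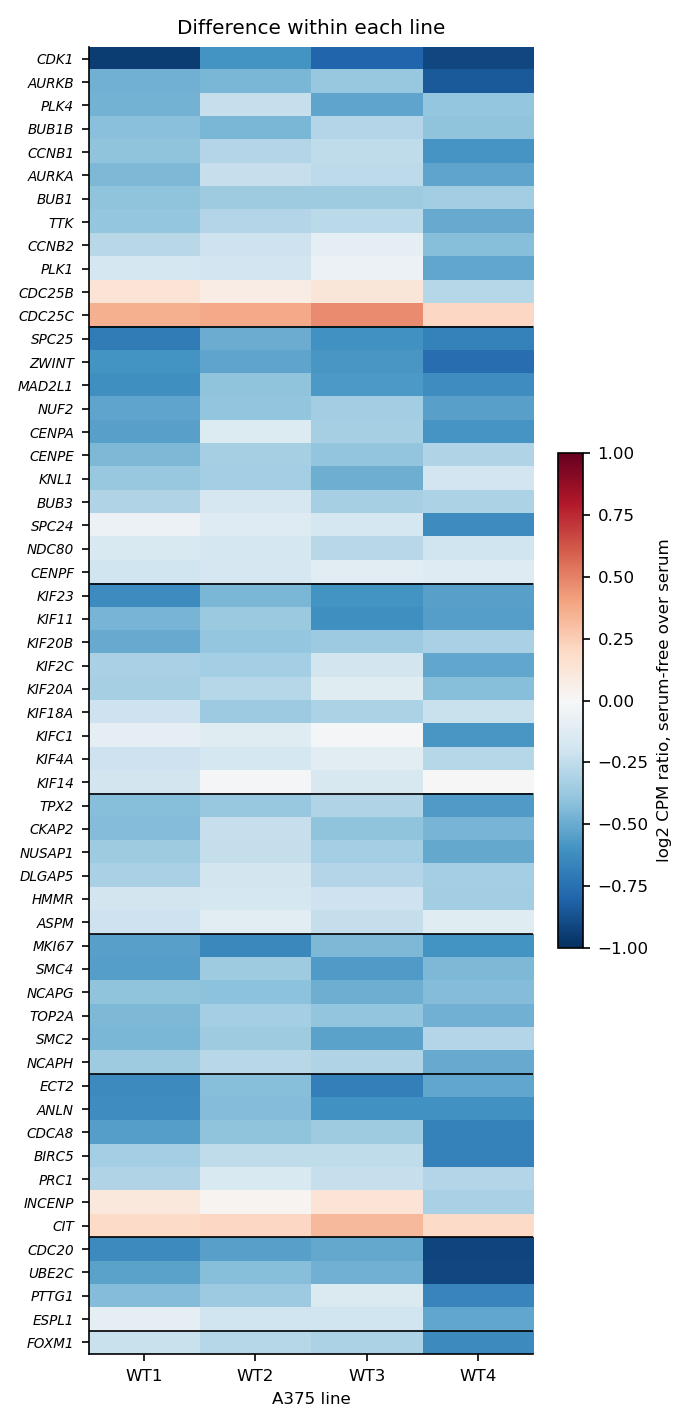
Log2 CPM ratio, serum-free over serum, of the 56 genes in each of the 4 lines, with black lines between the groups, blue for lower and red for higher without serum. *CDC25C* and *CIT* are red in all lines, *CDC25B* and *INCENP* are red in WT1 to WT3 and blue in WT4, and the other 52 are lower in all lines.

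The log2 differences moved with the GC content of the transcripts, across all genes, in 3 of the lines. Over all genes Spearman's rho between log2 difference and GC was 0.40, 0.36 and 0.39 for WT1 to WT3 and 0.073 for WT4, as a description across genes, which share their libraries. Over the 56 genes it was 0.29, 0.16, 0.45 and -0.38. In WT1 the median log2 difference of all genes of 34% to 38% GC was -0.30 and that of genes of 58% to 62% GC was 0.29, and in WT4 these were -0.057 and 0.11. The 56 genes ranged from 34.3% GC in *KIF20B* to 59.1% in *CDC25B*. Against the median of all genes at the same GC content, 49, 51, 50 and 53 of the 56 were lower in WT1, WT2, WT3 and WT4. In the 28 of lower GC content, up to 42.3%, 23 were lower without serum, against 24.4% of all genes in that range of GC content, and in the 28 of higher GC content 18 were, against 11.5%.

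**Figure D5:**
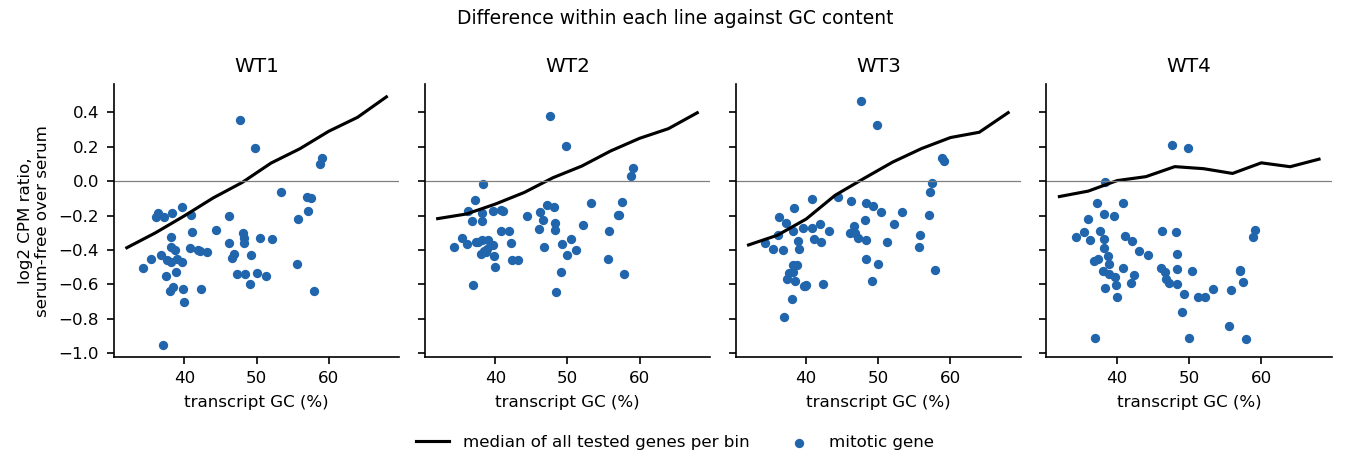
Log2 CPM ratio, serum-free over serum, within each line against the GC content of the transcript, with the 56 genes as blue points and the median of all tested genes in bins of 4% as a black line. The black line climbs with GC in WT1, WT2 and WT3 and is nearly flat in WT4, and 49, 51, 50 and 53 of the 56 points lie below it in WT1, WT2, WT3 and WT4.

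When each library was corrected for its own relation to GC and the line was kept as a replicate block, 47 of the 56 genes were lower, 3 were higher and 6 did not pass. The background was 22.1% lower and 24.3% higher, and the median log2 fold change was -0.28 for the 56 genes and 0.045 for all genes. Of the 28 genes of lower GC content 21 were then lower, at a median of -0.21, and of the 28 of higher GC content 26 were, at -0.36, against 23.0% and 22.2% of all genes in these ranges. The correction raised the log2 fold change of the 40 genes of up to 48.3% GC and lowered that of the 16 genes from 49.1% GC. Among the 40, *KIF20B* and *CENPE*, of 34.3% and 35.4% GC, moved from -0.40 and -0.37 to -0.13 and -0.12. *KIF14* then was called higher, at 0.10, as were *CDC25C* and *CIT*, and the 6 that did not pass were *CENPF*, *NDC80*, *KIF18A*, *DLGAP5*, *HMMR* and *ASPM*. Of the 16 lowered, *CDC25B*, *INCENP*, *PLK1*, *ESPL1*, *KIFC1* and *SPC24* were all lower, at -0.15, -0.17, -0.36, -0.38, -0.34 and -0.31. *CDC20* then had the largest fall, at -0.79, ahead of *AURKB* at -0.64, *ZWINT* at -0.62, *UBE2C* at -0.61 and *CDK1* at -0.59. All 6 condensin and chromosome genes stayed lower, at a median of -0.26.

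Levels were compared between genes per length, as CPM per kilobase of merged exons (RPKM). With serum the 56 genes had a median of 35.6 RPKM, against 2.75 RPKM over 17425 tested genes with a length. The highest levels were those of *CDC20*, 184 ± 14.9 RPKM (s.d., n = 4), *CCNB1*, 142 ± 15.5 RPKM, *UBE2C*, 135 ± 22.3 RPKM, and *TOP2A*, 134 ± 10.3 RPKM. Over merged exons the last 3 differed by less than the spread between lines, while over the longest transcript *UBE2C* was at 189.6, *CCNB1* at 170.2 and *TOP2A* at 150.2 RPKM. The lowest over merged exons were *CDC25C*, 3.76 ± 0.637 RPKM, and *CIT*, 4.66 ± 0.378 RPKM, the 2 genes that were higher in all lines without serum. For *CIT* the merged exons are long, and over its longest transcript the level was 12.3 RPKM, above those of *SPC25*, *KIF18A* and *PLK4* at 11.1, 11.7 and 12.0 RPKM by the same measure. Across the 56 genes the log2 fold change and the serum RPKM had a Spearman's rho of -0.30, as a description over genes of the same libraries.

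Genes whose proteins work as partners, or that are paralogs, were set against each other as a log2 ratio within each library. The 14 pairs were chosen after the values were seen. With 4 against 4 libraries the smallest p that the two-sided exact permutation test allows is 0.0286, and 2 pairs reached it. The ratio of *AURKB* to *INCENP* differed by -0.52 on the log2 scale, serum-free minus serum, and was lower in all 4 lines, with an exact permutation p = 0.0286 and an adjusted p of 0.133 over the 14 pairs. The ratio of *NDC80* to *NUF2* differed by 0.25, also with p = 0.0286 in the exact permutation test and 0.133 after adjustment. None of the 14 passed after adjustment. With this smallest p, an adjusted p under 0.05 would need most of the 14 pairs to reach it, so the adjusted values decide nothing. Both cultures of a line come from 1 clone, and within lines the ratio of *AURKB* to *INCENP* differed by -0.58 to -0.48 and that of *NDC80* to *NUF2* by 0.071 to 0.38. An exact permutation test that only flips signs within the 4 lines, added after the values were seen, cannot go below p = 0.125, which 9 of the 14 pairs reached. The ratio of *CDK1* to *CCNB1* differed by -0.43, or -0.55 to -0.31 within lines, and that of *SPC24* to *SPC25* by 0.37, or 0.047 to 0.64. Each had an exact permutation p of 0.0571 and the same direction in all 4 lines. The ratios have no GC correction. With the block and that correction *SPC24* and *SPC25*, of 53.3% and 39.9% GC, had log2 fold changes of -0.31 and -0.45. The ratios of *SMC2* to *SMC4* and of *BUB1* to *BUB1B* differed by 0.073 and 0.026, with exact permutation p of 0.457 and 0.743. Within lines the former was higher in all 4, by 0.0022 to 0.16, and the latter in 3 of 4.

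A wider list of 109 mitotic genes outside the 56 gave 74 lower, 0 higher and 35 that did not pass, with a median log2 fold change of -0.36, next to -0.37 for the 56. Of all genes tested in this fit 14% were lower and 11.1% higher. The centromere genes of the constitutive network had 10 of 13 lower, the MIS12, SKA and CENP-A loading genes 10 of 13, checkpoint and shugoshin genes 7 of 9, and cohesin genes 7 of 11. APC/C subunits and regulators had 9 of 17 lower and centrosome and augmin genes 11 of 18, while genes of mitotic entry had 9 of 12, other kinesins 2 of 3, other condensin subunits 2 of 4, other cytokinesis genes 3 of 3 and MuvB genes with their partners 4 of 6. *MYBL2*, which encodes B-MYB, the activator that joins MuvB at CHR promoters, was lower at -0.85 (edgeR adjusted p = 8.28e-04). *PBK*, a mitotic kinase, was lower at -0.70, *SGO2*, the shugoshin that protects cohesin, at -0.66, *CENPL* at -0.64, and *FBXO5*, the inhibitor of the APC/C, at -0.60. *SHCBP1* was at -0.57, *NCAPG2*, of condensin II, at -0.58, *PDS5B*, of cohesin, at -0.55, *KIF18B* at -0.54, *KNSTRN*, of the spindle and kinetochore, at -0.53, and *STIL*, of centriole duplication, at -0.50. With the line as a block 81 of the 109 were lower and 2 higher, *ANAPC2* and *NUMA1*, against 22.4% and 23.2% of all genes. With the GC correction as well 75 were lower and 1 higher, *NIPBL*, against 22.1% and 24.3% of all genes. *ANAPC2* and *NUMA1* then did not pass, at log2 fold changes of 0.030 and 0.012. Of 30 DNA replication genes, measured in the same libraries, 27 were lower, with a median log2 fold change of -0.46.

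Some of these counts are less certain. In 8 of the 56 genes over 10% of the exon length overlaps another gene, at most in *PRC1* with 34.3% and *NCAPG* with 33.7%, and the counting's strand setting is not given in the sources used here. *KIF4A* and *PTTG1* have near-identical copies, whose shared reads the counting would leave out.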

How the data were processed

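Ribosome-depleted total RNA was sequenced as paired reads. Per the labels, the authors trimmed reads with cutadapt, aligned them to GRCh38 with TopHat2 2.0.11 and deposited HTSeq counts per gene, whole numbers that are not normalized. The annotation release and strand setting are not given in the sources used here.

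Ensembl gene identifiers were matched to symbols, 55604 of 58051. Counts were tested with edgeR 4.0.16 (TMM scaling, filterByExpr, robust quasi-likelihood test, Benjamini-Hochberg adjustment over 17671 genes), with the line as a replicate block as an alternative. The same clone gave both cultures of a line, and same-line deviations correlated at 0.40 to 0.60, against at most 0.13 between lines. Each line is a clone. Without the block, p-values measure the spread between the 4 clones in each condition. With the block they measure how the difference between the conditions varies over the 4 clones. GC contents and gene lengths came from an annotation of another build, by gene identifier, for 17425 tested genes. Promoter windows and positions came from RefSeq on GRCh38.p14. Alternatives were DESeq2 1.42.0, limma voom 3.58.1, 3 other scalings, 2 other filters, a GC correction (loess, span 0.5) with the block, and leaving out each library and line. Values in every library are given for the genes with the largest and smallest change and the smallest p in each group, those that did not pass, and 12 core mitotic genes. Of each role of the wider list the gene of smallest p is given by its fold change. The genes, lists and tests were chosen with earlier results of these data known. Tests were checked on simulated counts, drawn with no line effect and no relation to GC. The check therefore cannot speak for these features of the libraries. Intervals of counting error are not given, since all counts of the 56 genes were at least 396. Counts in the wider list went down to 19.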

Additional observations from a re-analysis of the deposited data

Results flagged for a closer look

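Of 112 sets of 4 values, each of the 56 genes in each condition, 9 held 1 library far from the other 3, by Dixon's ratio of its gap to the whole range, and about 5.6 such sets, 1 in 20, are expected by chance. Without serum, WT3 was highest in *CCNB1*, at 312 CPM with the nearest library at 252, and in *CENPE*, at 96.5 with the nearest at 81.9. WT2 without serum was lowest in *NDC80*, at 34.3 with the nearest at 37.8, and in *NCAPG*, at 125 with the nearest at 140. WT2 with serum was lowest in *ZWINT*, at 93.3 with the nearest at 98.9, and in *TOP2A*, at 757 with the nearest at 878. WT4 without serum was lowest in *ZWINT*, at 58.5 with the nearest at 64.7, and in *ECT2*, at 103 with the nearest at 134. WT4 with serum was highest in *CIT*, at 149 CPM with the nearest at 130.

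*CDC25B* and *INCENP* were lower without serum in WT4, with log2 differences of -0.28 and -0.33, and higher in each of the other 3 lines. The difference between WT4 and the other lines was not tested.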

How the results depend on the processing

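The 56 genes had a negative median log2 fold change in all 22 alternatives, from -0.43 to -0.25, and lay below the median of all genes by 0.32 to 0.47. Between 22 and 51 of them were lower, 42 by DESeq2 and 40 by limma voom. The smallest count came without WT1, a fit of 6 libraries, and the cause of each lost call was not tested. With the replicate block 2 of the 56 and 2 of the other mitotic genes were higher, and over all genes 3961 were lower and 4106 higher, and the block moved the kinesins from 5 to 8 lower. With the block and the GC correction 3 of the 56 and 1 other mitotic gene were higher, and over all genes 3905 were lower and 4293 higher. Library totals without TMM moved the median of all genes to 0.15 and that of the 56 to -0.25, 0.40 below it as with TMM, where 28 of the 56 and 49 other mitotic genes were lower, 2 and 4 higher, and over all genes 1365 were lower and 3168 higher. Upper-quartile scaling gave 1 higher gene among the 56 and 1 among the other mitotic genes, and a minimum of 10 counts gave 1 among the 56. Without the serum libraries of WT1 and WT2, a choice made after seeing the data, 24 of the 56, 37 other mitotic and 17 replication genes were lower, and over all genes 724 were lower and 374 higher.

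Over the 12 refits without 1 library or line, 22 to 42 of the 56 were lower and 0 to 1 higher, 41 to 79 of the other mitotic genes were lower and 0 to 3 higher, and 969 to 3279 of all genes were lower and 620 to 2849 higher. The sign turned in 5 genes. *CDC25B* was at 0.011 with the block, 0.053 by upper quartile, 0.11 by library totals, 0.0053 with the minimum of 10 counts, 0.017 by limma voom and -0.083 to 0.16 over the refits. *INCENP* was at 0.034 by upper quartile, 0.091 by library totals and -0.10 to 0.11 over the refits. *KIF14* was at 0.025 by library totals, and with the block and GC correction *KIF14*, *HMMR* and *ASPM* were at 0.10, 0.0027 and 0.043. Every count of the 56 genes was at least 396, and each condition had 4 lines.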
